A study of Homo sapiens with 9 samples.

Results

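The mitochondrial ribosomal protein genes are nuclear genes for the proteins of the mitochondrial ribosome. They were taken as the protein-coding genes whose symbols begin with MRPL or MRPS followed by a number, without pseudogenes. Of the 60230 rows deposited, 164 matched that pattern, 86 of them were pseudogene, antisense or other noncoding rows, and 78 genes remained. Of these, 51 encode proteins of the large subunit, including MRPS30 and MRPS18A, which sit there despite their names, and 27 carry names of the small subunit. MRPS36 is 1 of the 27 and is named KGD4 in RefSeq, because its protein belongs to the alpha-ketoglutarate dehydrogenase complex rather than to the ribosome.

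The mitochondrial ribosome translates the few mRNAs that mitochondrial DNA encodes, all of them for subunits of the respiratory chain and ATP synthase. Its RNAs come from mitochondrial DNA, whereas its proteins are made in the cytosol and imported. It carries protein counterparts of the bacterial ribosome and, beside them, proteins found in mitochondria only. Without its products the respiratory chain cannot be assembled.

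The 9 libraries were made from poly(A) RNA of NCI-H358, a long-established line of human lung cancer cells, with 3 libraries in each of 3 states. Parental cells were sensitive to sotorasib, a targeted cancer drug, and received none. NCI-H358-R is the resistant derivative, grown continuously in 250 nM sotorasib for about 2 months, and it was profiled without drug (off drug) and 4 days after 250 nM was given (on drug). All groups share the same parental line, the resistant groups stand for 1 derivative, and no source used here states how long the cells had been off drug. The libraries are labelled biological replicates without mention of separate cultures, and every p-value below therefore refers to a library-to-library spread that may be technical.

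Promoter sequence was available in the RefSeq table (GRCh38.p14) for 70 of the 78 members, in 86 windows running from 250 bases before to 50 after a start site. The letters CCGGAAG, bound by ETS factors such as GABP, stood on either strand in 38.4% of member windows and in 10.3% of all 35116 windows. The YY1 letters AAGATGGCG stood in 15.1% against 1.75%, and the NRF1 letters GCATGCGC in 6.98% against 3.05%. The E-box CACGTG stood in 11.6% against 7.26%, and the NF-Y letters CCAAT in 32.6% against 34.6%. A match of letters describes the sequence and shows no binding, and the E-box can lie within longer motifs. The 150 bases before the start are shown for 6 members that the results below turn on: MRPS10 at chr6:42217862-42218011 (- strand), MRPL33 at chr2:27771569-27771718 (+ strand), MRPL32 at chr7:42932226-42932375 (+ strand), MRPL52 at chr14:22829737-22829886 (+ strand), MRPS18B at chr6:30617690-30617839 (+ strand) and MRPS18C at chr4:83455908-83456057 (+ strand). Each is written 5′ to 3′ along its gene, and capitals mark any of these letters or their reverse complement: the ETS letters in MRPS10 and MRPL33, NF-Y and then NRF1 letters in MRPL32, 2 copies of the YY1 letters in MRPL52, and the NRF1 letters in MRPS18B and MRPS18C.
MRPS10: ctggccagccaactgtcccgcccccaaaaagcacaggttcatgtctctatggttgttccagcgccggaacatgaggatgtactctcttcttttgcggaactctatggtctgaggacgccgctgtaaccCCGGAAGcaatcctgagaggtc
MRPL33: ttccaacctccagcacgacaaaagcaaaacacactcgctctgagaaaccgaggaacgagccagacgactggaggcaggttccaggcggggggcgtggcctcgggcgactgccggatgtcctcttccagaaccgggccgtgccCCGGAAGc
MRPL32: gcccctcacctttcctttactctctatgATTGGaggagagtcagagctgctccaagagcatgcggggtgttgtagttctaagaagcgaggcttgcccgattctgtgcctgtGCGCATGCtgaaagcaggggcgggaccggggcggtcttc
MRPL52: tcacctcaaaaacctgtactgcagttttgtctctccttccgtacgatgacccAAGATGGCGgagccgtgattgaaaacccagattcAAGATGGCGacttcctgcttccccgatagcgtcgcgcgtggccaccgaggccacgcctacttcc
MRPS18B: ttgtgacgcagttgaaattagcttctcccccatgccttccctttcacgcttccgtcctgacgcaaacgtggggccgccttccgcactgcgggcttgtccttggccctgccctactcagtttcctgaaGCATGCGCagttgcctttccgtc
MRPS18C: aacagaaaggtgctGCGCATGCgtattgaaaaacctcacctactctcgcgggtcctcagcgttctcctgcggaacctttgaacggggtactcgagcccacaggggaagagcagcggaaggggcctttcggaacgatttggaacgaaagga

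All 78 members passed the filter on low counts, and each stood at 11.69 TPM or more in every library. The median of their mean TPM (a level scaled for transcript length and depth) was 72.6. MRPL33 had the highest mean level at 323 TPM, followed by MRPL53 at 237, MRPL52 at 216 and MRPS23 at 204. The lowest were MRPS17 at 14.3, MRPL57 at 23.1, MRPS25 at 24.0 and MRPS31 at 25.6 TPM. Nearly all of these proteins are present once per ribosome, while the mean transcript levels of their genes spanned 22.6-fold.

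The libraries held 25698262 to 34727563 counts. TMM scaling factors, which correct each library for its makeup, ranged from 0.937 to 0.972 for the parental state, from 0.917 to 0.95 for the off-drug state and from 1.113 to 1.124 for the on-drug state, so the on-drug libraries stood apart from the other 6. Of 9 epithelial lung markers, 7 exceeded 1 TPM in every library, SFTPB was at 0 in all of them and NAPSA ranged from 0.410 to 3.50 TPM. The summed epithelial markers lay between 3948 and 4695 TPM in parental libraries, between 4102 and 4652 off drug and between 2848 and 3767 on drug. On drug against off drug the means of EPCAM, KRT8, KRT18 and KRT19 were lower, that of KRT19 at 712 against 1577 TPM. Those of CDH1, KRT7, NKX2-1 and NAPSA were higher, that of KRT7 at 872 against 657 TPM. The summed 6 fibroblast markers were 5.56 to 10.3 TPM in parental and off-drug libraries and 77.6 to 98.5 on drug, most of it LUM. Endothelial markers summed to 1.53 to 4.75 TPM over all libraries. Leukocyte markers summed to 37.9 to 60.5 TPM in parental and off-drug libraries and to 7.08 to 7.67 on drug, with MS4A1 at 0 in all libraries and PTPRC at 0.0662 TPM or less. Most of that sum was CD68, with means of 38.4 TPM in parental cells, 51.9 off drug and 5.86 on drug. The part of these shifts in the results was not tested.

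Off drug, the resistant cells carried a mixed pattern of member changes against parental cells. Under TMM scaling with edgeR's quasi-likelihood test and adjustment over 17307 genes, 15 of the 78 members (19.2%) were called higher at an adjusted p under 0.05, against 28.4% of all genes tested. A further 21 (26.9%) were called lower, against 26.6% of all genes. In either direction 46.2% of members were called, against 55.0% of all genes. The median log2 fold change was -0.04 over members and 0.00 over all genes, and without parental replicate 3 the member median was 0.04. No member changed as much as 2-fold.

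Among the rises, MRPL9, a large-subunit protein with a bacterial counterpart, stood at 142.1, 131.8 and 151.2 TMM-scaled CPM (counts relative to the scaled library size) in parental libraries, 199.2, 193.9 and 217.0 off drug and 127.2, 140.4 and 128.1 on drug. All off-drug libraries lay above all others, while parental and on-drug values overlapped. Its log2 fold change off drug against parental was 0.52 ± 0.08 (SE, adjusted p = 5.5e-05). MRPL2, a core protein near the peptidyl transferase centre, rose by 0.51 ± 0.09 (adjusted p = 0.00013). MRPS35, which sits on the head of the small subunit, stood at 117.9, 113.2 and 124.9 CPM in parental libraries, 167.5, 156.1 and 176.7 off drug and 131.0, 163.1 and 136.5 on drug. Off-drug and parental values did not overlap, and the rise was 0.49 ± 0.09 (adjusted p = 0.00027). MRPS5, MRPL24, MRPS21, MRPS26 and MRPL47 rose by 0.36 to 0.48 on the log2 scale. The calls of MRPL9, MRPL2, MRPS35, MRPS5, MRPL24, MRPS21 and MRPS26 were kept under all 7 count scalings tried, and that of MRPL47 under 5.

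Among the falls, MRPS9, a small-subunit protein whose bacterial counterpart reaches towards the bound tRNA, stood at 48.8, 43.56 and 56.4 CPM in parental libraries. It stood at 28.41, 29.4 and 30.65 off drug and at 28.79, 29.69 and 29.26 on drug. The resistant libraries lay below all parental ones in both states, and the log2 fold change off drug was -0.75 ± 0.09 (adjusted p = 5.8e-06). MRPL32, a large-subunit protein that is cleaved after import before it is built into the ribosome, stood at 67.22, 58.94 and 63.89 CPM in parental libraries, 35.72, 33.16 and 44.52 off drug and 54.66, 71.3 and 61.56 on drug. Off-drug libraries lay below all others, and the log2 fold change against parental cells was -0.74 ± 0.12 (adjusted p = 5.6e-05). MRPL45, which lies at the exit of the protein tunnel and ties the ribosome to the inner membrane, stood at 125.6, 118.9 and 130.2 CPM in parental libraries, 82.74, 75 and 88.4 off drug and 70.2, 85.46 and 75.22 on drug. Parental libraries were above all resistant ones, and the log2 fold change off drug was -0.61 ± 0.09 (adjusted p = 3.5e-05). MRPL44, its neighbour at the tunnel exit, and MRPS12, which lines the decoding site, had log2 fold changes of -0.59 and -0.58. MRPL46 of the central protuberance and MRPL35 had log2 fold changes of -0.63 and -0.47. These 7 calls were kept under all 7 count scalings and on TPM values. Of all 15 rises in this comparison, 9 were kept under all 7 count scalings and on TPM values. Of the 21 falls, 17 were kept under all 7 count scalings and 14 also on TPM values. With 1 library left out, 5 of the 15 rises and 6 of the 21 falls lost their call in some fit.

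MRPL30 was also lower in counts, with a log2 fold change of -0.65 off drug, but was not called on TPM values, where it was -0.21. Its effective length, as the ratio of counts to TPM gives it relative to other genes, was 0.804 times the parental one off drug, with no overlap between libraries. A shift of over 0.2 on the log2 scale in that ratio was seen in 1, 3 and 5 members (1.28, 3.85 and 6.41%) off drug against parental, on drug against off drug and on drug against parental. The shares over 12532 genes were 9.86, 15.5 and 16%. On drug against off drug the members with such a shift were MRPL30, MRPL35 and MRPS18C. On drug against parental the effective length was 1.31 times the parental one for MRPS18C and 1.19 times for MRPL35. It was 0.851 times for MRPS25, 0.861 for MRPL41 and 0.829 for MRPL55, with no overlap between libraries for any of these. Count-based changes of these members given below carry this limit.

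**Figure D1:**
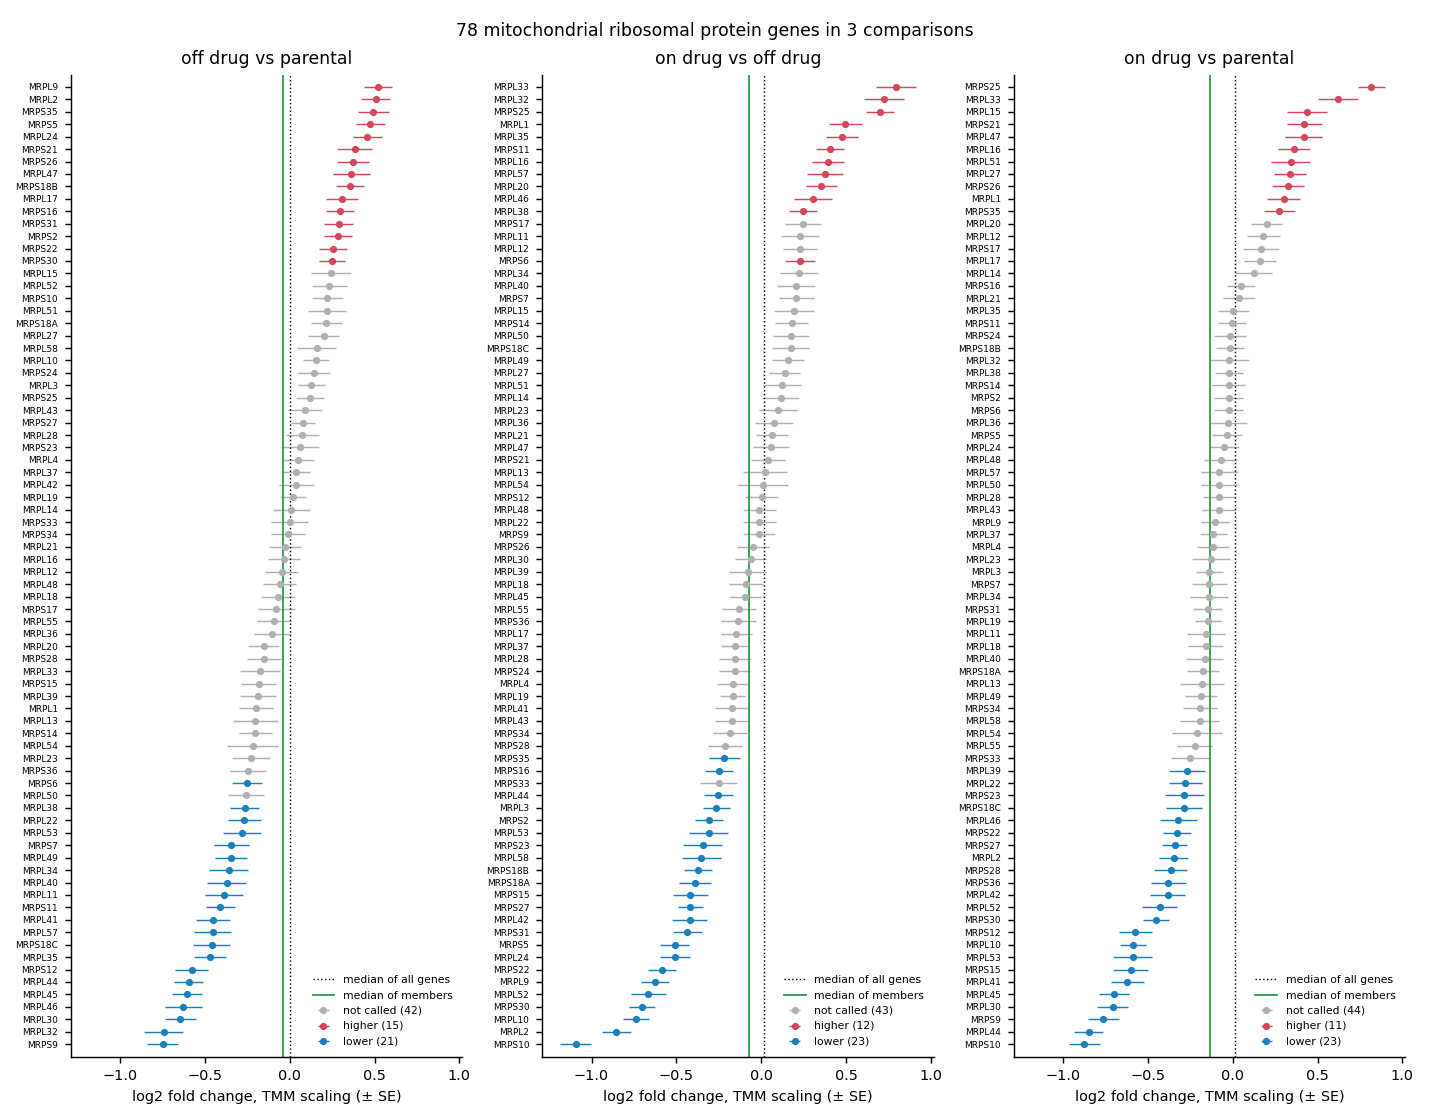
Log2 fold change (x axis, TMM scaling) of each of the 78 members in each comparison, ordered by size, with bars of 1 SE. Red and blue points are members called higher and lower, grey points were not called, and the green and dotted lines are the medians of members and of all genes. MRPS10 has the lowest value in the second and last panels, and the member median is left of the line of all genes in each.

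With drug, against the same cells off drug, more members fell than rose under TMM scaling, and under scaling to library size alone the order of these counts was the opposite. Under TMM 12 members (15.4%) were called higher against 31.4% of all genes, and 23 (29.5%) lower against 31.2%. In either direction 44.9% of members were called, against 62.6% of all genes. The median log2 fold change was -0.07 over members and 0.02 over all genes. Without on-drug replicate 1, 20 members were called higher. The 12 rises were kept under all 7 count scalings and on TPM values. Of the 23 falls, 9 were kept under all 7 count scalings and 8 also on TPM values. Of these scalings TMM gave the lowest median over all genes, so the others could hardly remove a rise. With 1 library left out, 3 of the 12 rises and 7 of the 23 falls lost their call in some fit.

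MRPS10, a protein of the small-subunit head, was the 1 member that changed 2-fold or more. It stood at 233.9, 217.0 and 222.9 CPM in parental libraries, 261.8, 247.4 and 275.6 off drug and 109.7, 141.0 and 117.1 on drug. On-drug libraries were below all others, and the log2 fold change against off-drug cells was -1.09 ± 0.09 (adjusted p = 4.5e-08). MRPL2 stood at 79.65, 76.76 and 81.88 CPM off drug and 44.46, 42.39 and 45.02 on drug, below its parental values of 51.35, 53.33 and 63.22. Its log2 fold change on drug against off drug was -0.85 ± 0.09 (adjusted p = 3.8e-07). MRPL10, which anchors the stalk where translation factors bind, stood at 78.5, 74.35 and 80.34 CPM off drug and 46.53, 46.91 and 46.24 on drug, a log2 fold change of -0.74 ± 0.08 (adjusted p = 5.0e-07). MRPS30 of the large subunit stood at 67.42, 64.89 and 63.36 CPM off drug and 42.0, 39.49 and 38.71 on drug, a log2 fold change of -0.70 ± 0.08 (adjusted p = 9.7e-07). The groups did not overlap for MRPL2, MRPL10 or MRPS30. MRPL52 of the central protuberance, MRPL9, MRPS22 and MRPL24 had log2 fold changes of -0.66, -0.63, -0.58 and -0.51. These 8 falls were the ones kept under all count scalings and on TPM values.

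The rises on drug were led by MRPL33, a small large-subunit protein with a bacterial counterpart. It stood at 58.65, 56.74 and 62.14 CPM in parental libraries, 50.16, 49.66 and 57.2 off drug and 72.39, 108.6 and 91.54 on drug. The on-drug libraries lay above the other 6 but differed among themselves, and the log2 fold change against off-drug cells was 0.79 ± 0.12 (adjusted p = 2.5e-05). MRPL32 rose from its low off-drug level to values that overlapped the parental ones, a log2 fold change of 0.72 ± 0.12 (adjusted p = 5.2e-05). MRPS25, a small-subunit protein found in mitochondria only, stood at 17.96, 16.63 and 17.35 CPM in parental libraries, 18.93, 18.1 and 19.32 off drug and 30.91, 30.06 and 30.58 on drug. Its on-drug libraries agreed within 1 CPM and lay far above the rest, with a log2 fold change of 0.70 ± 0.08 (adjusted p = 1.5e-06). MRPL1, MRPL35, MRPS11, MRPL16 and MRPL57 rose by 0.38 to 0.50. MRPL12, the stalk protein that contacts translation factors, stood at 146.6, 145.3 and 160.5 CPM off drug and 164.8, 183.7 and 181.7 on drug without overlap, and just missed the threshold under TMM (log2 fold change 0.23 ± 0.10, adjusted p = 0.055). It was called higher under 15 of the 23 alternatives, among them library size alone and both TPM scales, with adjusted p from 0.00022 to 0.15 and log2 fold changes from 0.20 to 0.54 over all 23.

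**Figure D2:**
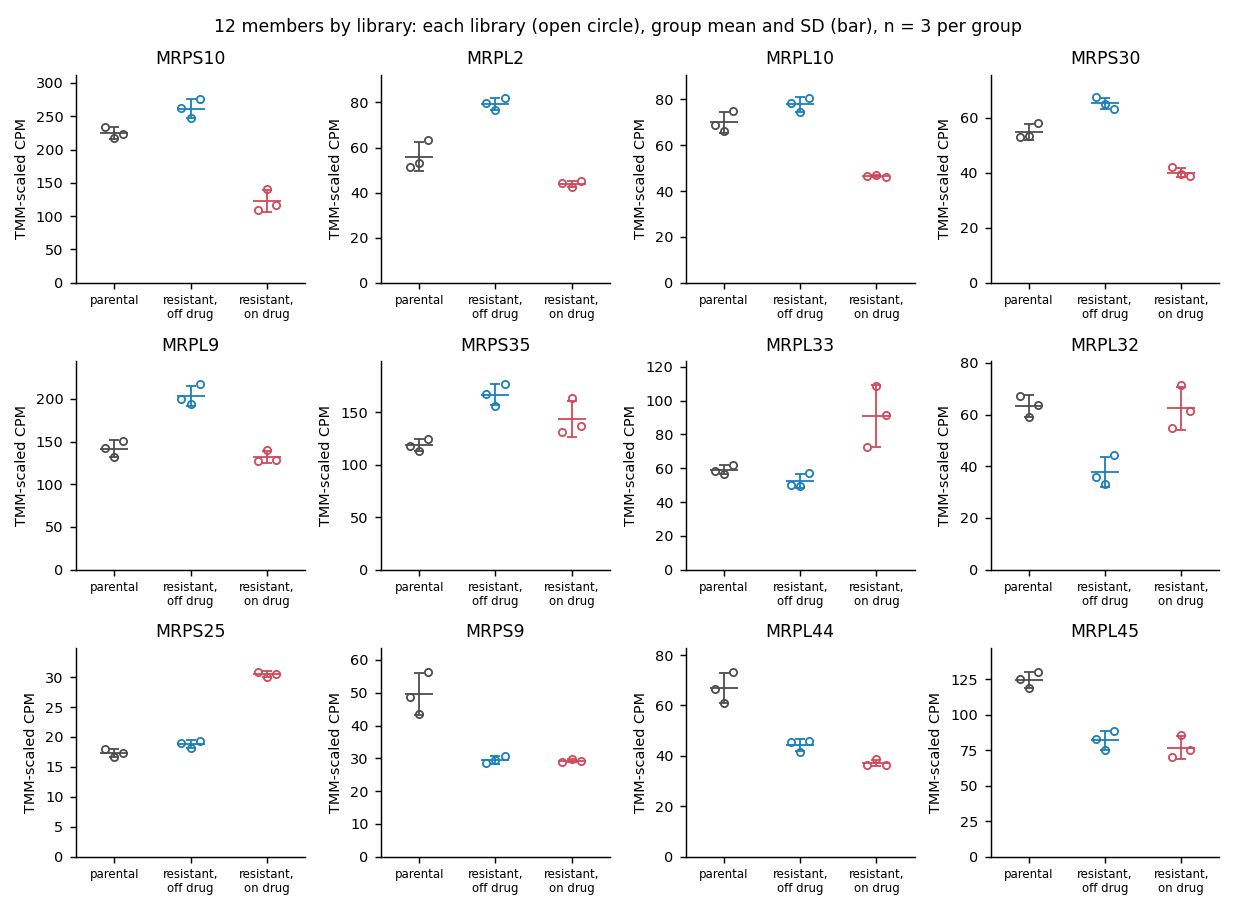
TMM-scaled CPM (y axis, from 0) of 12 members in each library of the 3 groups (x axis). Open circles are libraries and bars are the group mean ± SD (n = 3). By group mean, MRPS10, MRPL2, MRPL10 and MRPS30 are lowest on drug, MRPL33 and MRPS25 highest on drug, MRPL9 and MRPS35 highest off drug, MRPL32 lowest off drug, and MRPS9, MRPL44 and MRPL45 highest in parental cells.

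On drug against parental cells, 11 members (14.1%) were called higher and 23 (29.5%) lower under TMM, against 33.4 and 32.9% of all genes. In either direction 43.6% of members were called, against 66.3% of all genes. The median log2 fold change was -0.13 over members and 0.02 over all genes, and with library size alone it was 0.09 over members and 0.24 over all genes. This comparison shares its on-drug libraries with the one before and its parental libraries with the first, so its values are not independent of either. MRPS10 had a log2 fold change of -0.87 ± 0.09 (adjusted p = 5.0e-07). MRPL44 stood at 66.33, 61.15 and 73.31 CPM in parental libraries, 45.32, 41.6 and 46.0 off drug and 36.35, 38.7 and 36.48 on drug. Its 3 groups did not overlap on this scale, and it was lower on drug than in parental cells by a log2 fold change of -0.85 ± 0.09 (adjusted p = 2.9e-07). Its fall on drug against off drug (-0.25, adjusted p = 0.017) was kept under 11 of 23 alternatives and was 0.0033 with library size alone. MRPS9, MRPL30, MRPL45, MRPL41, MRPS15 and MRPL53 had log2 fold changes of -0.76, -0.71, -0.70, -0.62, -0.60 and -0.59. On log2(TPM + 1) values MRPL41 and MRPL53 were not called (-0.08, adjusted p = 0.38, and -0.17, adjusted p = 0.13). MRPS25 and MRPL33 led the rises at 0.82 ± 0.08 (adjusted p = 2.3e-07) and 0.62 ± 0.12 (adjusted p = 0.00024), followed by MRPL15, MRPS21, MRPL47, MRPL16, MRPL51 and MRPL27 at 0.34 to 0.44. MRPL51 was not called without parental replicate 1, parental replicate 2 or on-drug replicate 2 (adjusted p up to 0.095). The 11 rises were kept under all count scalings and on TPM values, and of the 23 falls 11 were kept under all count scalings and 7 also on TPM values. TMM and RLE factors gave the lowest medians over all genes (0.016 and 0.014), so the other scalings could hardly remove a rise. With 1 library left out, 3 of the 11 rises and 5 of the 23 falls lost their call in some fit.

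The 3 MRPS18 paralogs, related copies that take separate places on the ribosome, differed in direction off drug against parental cells. MRPS18B stood at 103, 100 and 117.2 CPM in parental libraries, 134.9, 128.1 and 146.6 off drug and 104.8, 106.8 and 104.9 on drug, so that off-drug libraries were highest. Its log2 fold change was 0.35 ± 0.08 off drug against parental (adjusted p = 0.0018) and -0.37 ± 0.08 on drug against off drug (adjusted p = 0.00097). MRPS18C stood at 61.82, 60.35 and 64.67 CPM in parental libraries, 43.77, 41.19 and 50.65 off drug and 42.87, 58.68 and 51.62 on drug, so that parental libraries were highest. Its log2 fold change was -0.46 ± 0.11 off drug against parental (adjusted p = 0.0020) and, without a call, 0.17 ± 0.11 on drug against off drug. MRPS18A, in the large subunit, was not called off drug against parental (0.22 ± 0.09, adjusted p = 0.061) and was lower on drug than off drug (log2 fold change -0.39 ± 0.09, adjusted p = 0.0017). The falls of MRPS18A and MRPS18B on drug against off drug were not called with library size alone, with equal member medians or on TPM values, where they came as near to 0 as -0.08 (adjusted p = 0.42, log2(TPM + 1)) and -0.11 (adjusted p = 0.20, library size alone). Off drug against parental, all genes of chromosome 6, which holds MRPS18A and MRPS18B, had a median log2 fold change of 0.25. Those of chromosome 4, which holds MRPS18C, had a median of -0.36. The directions of MRPS18B and MRPS18C were thus those of their chromosomes, and the part of chromosome was not tested. The promoter stretches of MRPS18B and MRPS18C shown above both hold the NRF1 letters. Their full windows differ, with YY1 letters in MRPS18B only and ETS, E-box and NF-Y letters in MRPS18C only. MRPL58, which frees peptides from stalled mitochondrial ribosomes and is built into the large subunit, was not called in either comparison with parental cells and was lower on drug than off drug (log2 fold change -0.35 ± 0.12, adjusted p = 0.015), a call kept under 3 of 7 count scalings and lost without off-drug replicate 3, on-drug replicate 1 or on-drug replicate 3 (adjusted p up to 0.079).

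Library scaling changed how many members were called and could change whether more were called higher or lower. With library size alone, 15 members (19.2%) were higher and 25 (32.1%) lower off drug against parental, where 26.4 and 28.0% of all genes were. On drug against off drug, 36 (46.2%) were higher and 9 (11.5%) lower, where 45.0 and 20.7% of all genes were. On drug against parental, 24 (30.8%) were higher and 11 (14.1%) lower, where 43.9 and 24.4% of all genes were. Tested with limma on log2(TPM + 1), 27 (34.6%) were higher and 14 (17.9%) lower off drug against parental, beside 33.3 and 18.3% of 13826 genes. On that scale 35 (44.9%) were higher and 10 (12.8%) lower on drug against off drug, beside 38.5 and 21.7%. On drug against parental 40 (51.3%) were higher and 8 (10.3%) lower, beside 47.0 and 20.5%. Upper-quartile factors gave 9 higher and 29 lower, 24 and 15, and 12 and 20 members in the 3 comparisons, in that order, beside 23.8 and 31.1%, 37.9 and 25.2%, and 35.4 and 31.0% of all genes. TMM factors from abundant genes only gave 9 and 30, 24 and 16, and 12 and 23 members, beside 23.5 and 31.5%, 36.8 and 26.1%, and 34.0 and 32.2% of all genes. Equal member medians gave 14 and 20, 29 and 12, and 17 and 12 members, beside 23.9 and 23.7%, 36.6 and 21.1%, and 38.5 and 23.9% of all genes. Median-ratio factors from the members alone gave 21 and 17, 16 and 18, and 15 and 15 members, beside 27.1 and 20%, 29.6 and 25.4%, and 34.8 and 25.5% of all genes.

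A change of count scaling shifts the log2 fold changes of all genes by nearly the same amount. It could therefore hardly move the members relative to other genes, whereas leaving out a library changes the data. The members' median log2 fold change minus that of all genes was -0.04 in each of the 7 count scalings off drug against parental. It was -0.09 on drug against off drug and -0.15 on drug against parental. The median of all genes itself reached 0.27 with library size alone, from 0.02 under TMM. On log2(TPM + 1) values the same differences were -0.06, 0.01 and -0.04. With 1 library left out under TMM they ranged from -0.10 to 0.04, from -0.16 to -0.03 and from -0.18 to -0.07. Off drug against parental the difference was above 0 without parental replicate 3 (0.038) or off-drug replicate 2 (0.0031), and it was -0.10 without parental replicate 2, -0.09 without off-drug replicate 3 and -0.07 without parental replicate 1. It was -0.02 without off-drug replicate 1. On drug against off drug it was -0.03 without on-drug replicate 1 and -0.05 without off-drug replicate 3, and it was -0.16 without on-drug replicate 2 and -0.15 without off-drug replicate 2. On drug against parental it was -0.07 without parental replicate 3 and -0.09 without on-drug replicate 1. No member was called in opposite directions by any 2 of these scalings. Between TMM and library size alone, 4, 38 and 25 members gained or lost a call in the 3 comparisons, and 2, 24 and 34 changed sign. Of those that switched on drug against off drug, the 4 with the highest level were MRPL53, MRPS23, MRPL12 and MRPL3. MRPL53, MRPS23 and MRPL3 were lower under TMM (log2 fold changes -0.31, -0.35 and -0.26) and not called with library size alone (-0.05, -0.09 and -0.01), and MRPL12 was higher with library size alone (0.49). Under TMM, MRPL3, MRPS23 and MRPL53 were not called without on-drug replicate 3. MRPS23 and MRPL53 were also not called without on-drug replicate 1 or off-drug replicate 3, nor MRPL53 without off-drug replicate 1.

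**Figure D3:**
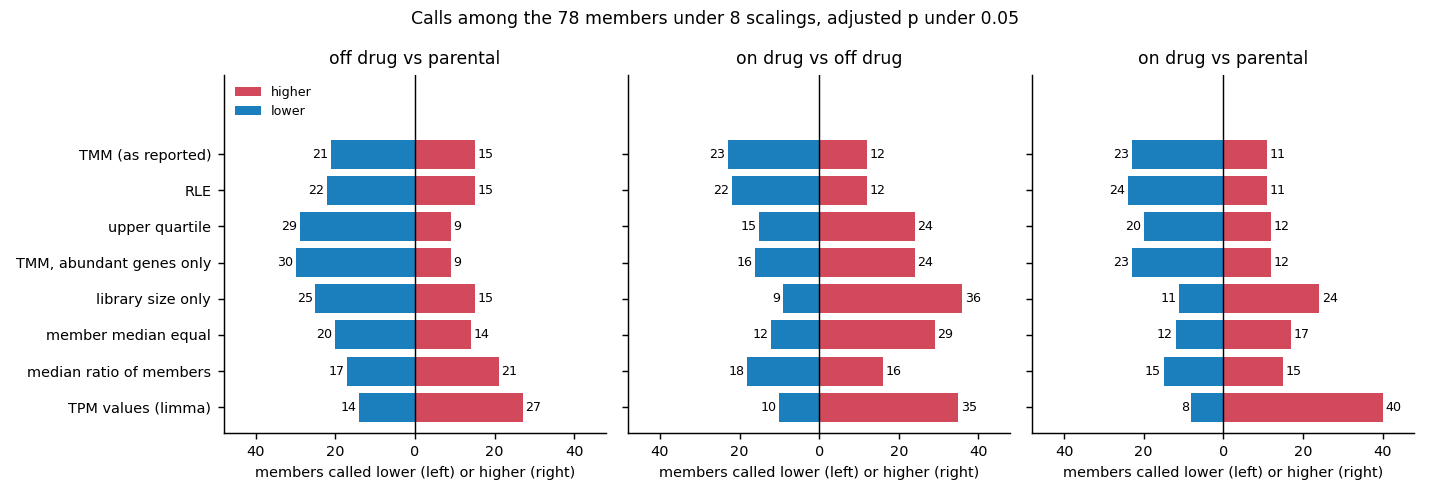
Number of members called lower (blue, left) and higher (red, right) in each comparison (x axis) under 7 scalings of the counts and on TPM values (rows). On drug against off drug, calls go from 12 higher and 23 lower under TMM to 36 higher and 9 lower with library size alone.

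Member changes were smaller in size than those of other genes. The median absolute log2 fold change was 0.24, 0.22 and 0.19 over members in the 3 comparisons and 0.44, 0.53 and 0.58 over all genes tested. Over the 8956 genes at or above the lowest member level it was 0.34, 0.40 and 0.45. Of those 8956 genes 9.21, 15.2 and 17.4% changed 2-fold or more, against 0, 1 and 0 members.

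Summed over members, the share of a library's counts was 0.555, 0.534 and 0.589% in parental libraries, 0.547, 0.522 and 0.579% off drug and 0.556, 0.651 and 0.588% on drug. The groups overlapped, and exact two-sided permutation tests gave p = 0.7, 0.2 and 0.4 (adjusted over the 3 pairs 0.7, 0.6 and 0.6) for off drug against parental, on drug against off drug and on drug against parental. Within a single library, counting error alone gave a 95% Wilson interval such as 0.552 to 0.557% in parental replicate 1, far narrower than the spread between libraries. The summed TPM was 6632, 6541 and 6972 in parental libraries, 7233, 6867 and 7306 off drug and 7724, 8412 and 7913 on drug. On this scale on-drug libraries lay above all others, while parental and off-drug values overlapped (exact permutation p = 0.1 for on drug against either, the smallest that 3 against 3 libraries allow). Under TMM scaling the sum ran the other way, at 5767, 5496 and 6291 CPM in parental libraries, 5823, 5501 and 6313 off drug and 4948, 5848 and 5282 on drug. On-drug means were lower than off drug by a log2 ratio of -0.13 and than parental by -0.13, with overlap (exact permutation p = 0.3 for each). The direction of the on-drug sum against the others depended on the scale. Fewer cells of a kind and less RNA per cell cannot be told apart in such bulk values.

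The ratio of large- to small-subunit members, summed in TPM within each library, needs no scaling between libraries. It was 2.08, 2.09 and 2.13 in parental libraries, 2.01, 2.02 and 2.03 off drug and 2.24, 2.35 and 2.31 on drug. No pair of groups overlapped, and each exact permutation test reached its smallest possible p of 0.1. Without MRPL33, the most abundant member and the largest rise on drug against off drug, the group means went from 2.10, 2.02 and 2.30 to 1.98, 1.92 and 2.10, again without overlap. Summed in counts in place of TPM, the ratio was 1.77, 1.63 and 1.84 in the same order of groups, with log2 ratios of -0.12 off drug against parental and 0.057 on drug against parental, where TPM gave -0.055 and 0.13. By the median member in place of the sum, the on-drug ratio lay slightly below the parental one (log2 ratio -0.025). Members of both subunits were called in both directions. Off drug against parental, 6 of 51 large-subunit members rose and 15 fell, against 9 and 6 of 27 in the small subunit, where 28.4% of all genes rose and 26.6% fell. On drug against off drug the counts were 9 and 12 for the large and 3 and 11 for the small subunit, beside 31.4 and 31.2% of all genes. They were 25 and 6, and 11 and 3, with library size alone, beside 45.0 and 20.7% of all genes.

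Set against cytosolic ribosomal protein genes or nuclear respiratory chain genes within the same library, the members stood at a different ratio in each state. Per 1000 TPM of the 79 cytosolic ribosomal protein genes, the members held 22.4, 22.7 and 22.5 TPM in parental libraries, 25.9, 25.7 and 25.4 off drug and 32.9, 29.9 and 31.1 on drug. The ratio was lowest in parental and highest on drug with no overlap between groups (exact permutation p = 0.1 for each pair, the smallest possible). From counts in place of TPM it was 42.4 ± 0.33, 48.9 ± 1.1 and 59.6 ± 2.8 per 1000 (SD, n = 3), also without overlap. Of the cytosolic genes 30, 65 and 73 were called lower in the 3 comparisons under TMM and 1, 0 and 0 higher. Of all genes 26.6, 31.2 and 32.9% were lower and 28.4, 31.4 and 33.4% higher. Scaled by library size alone, 42, 15 and 53 cytosolic genes were lower and 1, 2 and 3 higher. The shares of all genes were then 28.0, 20.7 and 24.4% lower and 26.4, 45.0 and 43.9% higher. Per TPM of 78 nuclear genes of the respiratory chain, the members held 0.257 ± 0.0020 TPM in parental cells, 0.318 ± 0.0034 off drug and 0.294 ± 0.0052 on drug (SD, n = 3), without overlap between groups (exact permutation p = 0.1 for each pair). The mean summed TPM of these 78 genes was itself 26135 in parental cells, 22457 off drug and 27261 on drug. Under TMM 48, 16 and 46 of them were called lower in the 3 comparisons and 1, 18 and 5 higher. With library size alone 53, 10 and 25 were lower and 1, 51 and 14 higher. Such a ratio alone does not show that the members changed.

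**Figure D4:**
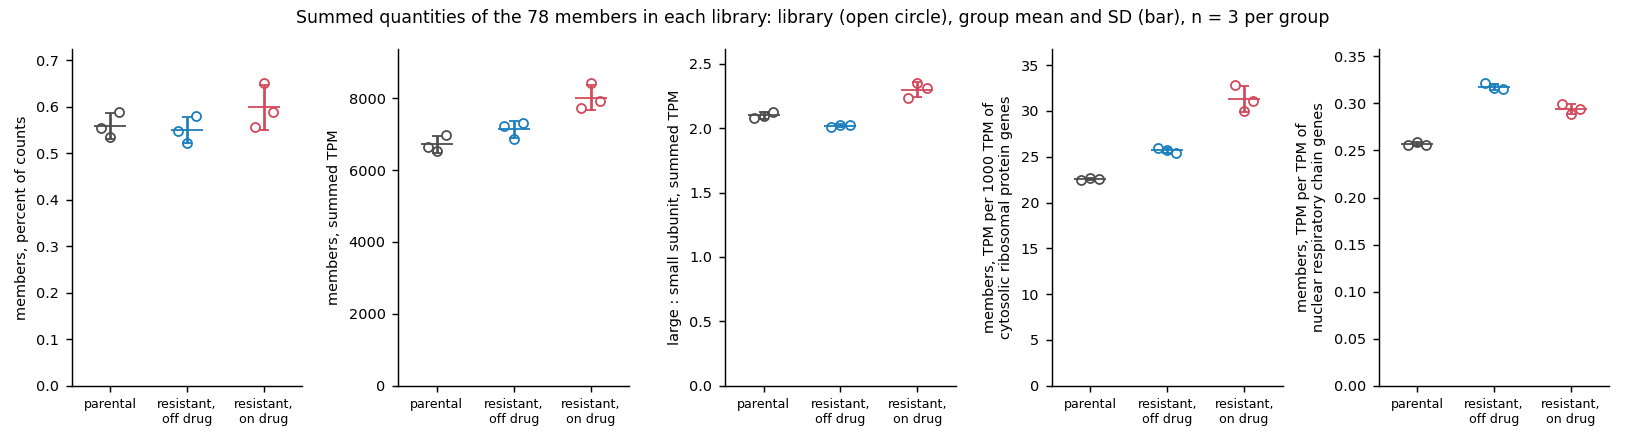
Quantities of the members (y axes, all from 0) in each library of the 3 groups: the members' percent of counts, their summed TPM, the large-to-small ratio, and their TPM per 1000 TPM of cytosolic ribosomal protein genes and per TPM of nuclear respiratory chain genes. Open circles are libraries and bars are the mean ± SD (n = 3); the groups overlap in percent of counts and are separate in the last 3 quantities.

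Counts by place on the ribosome rest on few members, and 55.0, 62.6 and 66.3% of all genes were called in the 3 comparisons. By direction, 28.4, 31.4 and 33.4% of all genes were higher and 26.6, 31.2 and 32.9% lower. With library size alone, 45.0% were higher and 20.7% lower on drug against off drug. On drug against parental these shares were 43.9 and 24.4%. By place, MRPL10 of the stalk where translation factors bind was called lower on drug against off drug. MRPL11 and MRPL12 of that stalk were not called. MRPL1, listed with them but not part of that stalk, was called higher. All 4 were called with library size alone, upper-quartile factors, factors from the members alone and log2(TPM + 1), 3 of them higher (MRPL1, MRPL11 and MRPL12) and MRPL10 lower. Of 8 tunnel-exit members 3 rose and 3 fell off drug against parental, and 1 rose and 4 fell on drug against parental. Of 8 central-protuberance members 0 rose and 3 fell off drug against parental, and 2 rose and 1 fell on drug against off drug. These last tunnel-exit counts were 2 and 2, and the last central-protuberance counts 5 and 1, with library size alone. The 45 members with a bacterial counterpart had 9 rises and 12 falls off drug against parental and 8 and 10 on drug against off drug. The other 33 had 6 and 9, and 4 and 13. With library size alone the last comparison gave 26 and 6 for the 45 and 10 and 3 for the 33.

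Ribosome proteins named outside the MRPL and MRPS series included DAP3, a small-subunit GTP-binding protein, which stood at 161.9, 154.6 and 183.3 CPM in parental libraries, 230.7, 221.5 and 227.3 off drug and 175.8, 165.1 and 169.1 on drug. Off-drug libraries were above all others, as for MRPS18B and MRPL9, and its log2 fold change was 0.44 ± 0.08 off drug against parental (adjusted p = 0.00019) and -0.41 ± 0.08 on drug against off drug (adjusted p = 0.00027). That fall of DAP3 was not called with library size alone (-0.16, adjusted p = 0.074). Of all genes, 28.4% rose and 26.6% fell off drug against parental, and 31.4% rose and 31.2% fell on drug against off drug. Of 26 assembly factors, 8 rose and 4 fell off drug against parental, and 8 rose and 8 fell on drug against off drug. TFB1M, which methylates the small-subunit rRNA, had a log2 fold change of -1.50 ± 0.13 on drug against off drug (adjusted p = 7.2e-08), and MTG1, a GTPase of large-subunit assembly, one of 1.24 ± 0.15 (adjusted p = 2.8e-06). Of 16 mitochondrial translation factors, 2 rose and 5 fell off drug against parental and 3 rose and 6 fell on drug against off drug. Among them GFM1, an elongation factor, rose by 0.70 off drug against parental, and OXA1L, the insertase that receives the new proteins, had a log2 fold change of -0.80 on drug against off drug. Of 15 genes that copy, transcribe or process mitochondrial DNA and its RNA, 6 rose and 3 fell off drug against parental, and 7 rose and 6 fell on drug against off drug. With library size alone, the last comparison gave 13 rises and 4 falls for the assembly factors, 7 and 2 for the translation factors and 7 and 3 for the genes of mitochondrial DNA. On that scale 45.0% of all genes rose and 20.7% fell.

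The mRNAs that the mitochondrial ribosome translates had medians apart from that of the members. Of 13 mitochondrially encoded mRNAs, 0 rose and 8 fell off drug against parental, with a median log2 fold change of -0.35, and 7 rose and 0 fell on drug against off drug, with a median of 0.29 (10 and 0 with library size alone). MT-CO2 stood at 2697, 2881 and 2462 CPM in parental libraries, 1374, 1592 and 1457 off drug and 2132, 1805 and 2397 on drug. The summed TPM of the 13 mRNAs overlapped in every pair of groups (exact permutation p = 0.2, 0.2 and 0.5). The members' summed TPM per TPM of the 13 mRNAs, unlike the ratios to the nuclear lists above, also overlapped in every pair. Its exact permutation p values were 0.2, 0.2 and 0.5. These RNAs carry short poly(A) tails, so oligo(dT) selection samples them differently from nuclear mRNAs. Of 9 nuclear regulators of mitochondrial genes, 4 rose and 1 fell off drug against parental, and 2 rose and 4 fell on drug against off drug, or 4 and 2 with library size alone. Off drug against parental, MYC, a growth-promoting transcription factor, rose by 1.37 ± 0.08 (adjusted p = 1.4e-09) and PPRC1, a coactivator of mitochondrial biogenesis, by 1.14 ± 0.09 (adjusted p = 2.6e-08). The related coactivator PPARGC1A had a log2 fold change of -1.23 ± 0.30 (adjusted p = 0.0027), and ESRRA, a nuclear receptor of the same programme, had a log2 fold change of -0.80 ± 0.10 on drug against off drug (adjusted p = 3.8e-06). Of the 30 members with the ETS letters, 6 rose and 6 fell off drug against parental and 4 rose and 10 fell on drug against off drug. Of the 13 with the YY1 letters, 2 rose and 4 fell, and then 3 rose and 6 fell. In the same order, 28.4% of all genes rose and 26.6% fell, and then 31.4% and 31.2%. With library size alone the last comparison gave 13 rises and 3 falls for the ETS letters and 6 and 3 for the YY1 letters, where 45.0 and 20.7% of all genes were called.

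**Figure D5:**
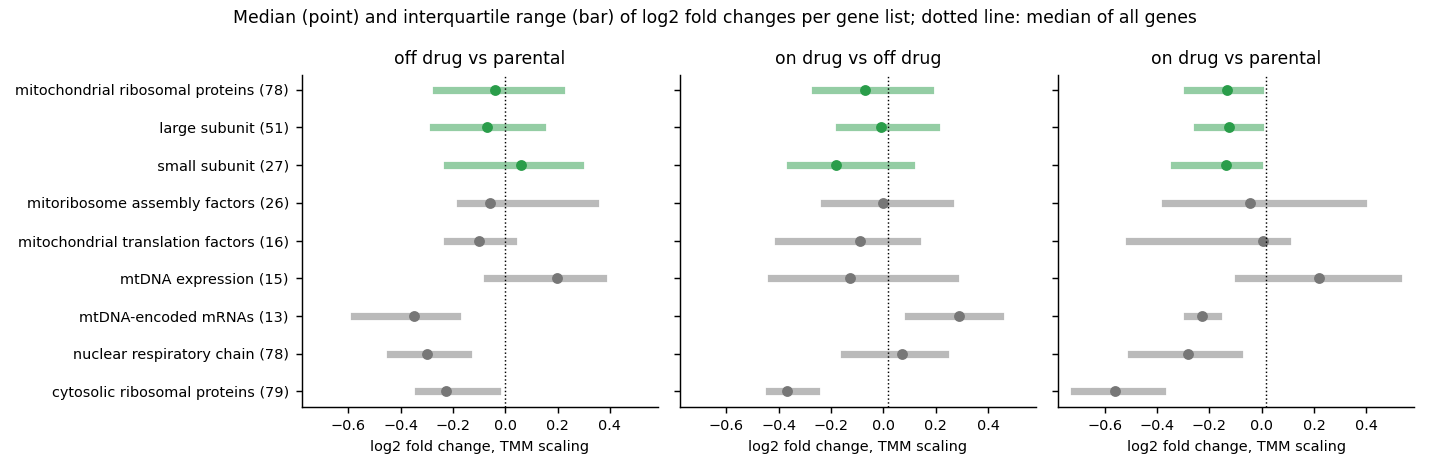
Median (point) and interquartile range (bar) of the log2 fold changes (x axis, TMM scaling) of the members, their subunits and related gene lists (rows, number of genes in brackets), with the median of all genes as a dotted line. The member medians are -0.04, -0.07 and -0.13 from left to right, and those of the cytosolic ribosomal protein genes are lower in each panel.

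Members on the same chromosome were set beside the other genes there. On chromosome 2, which holds MRPS9, MRPL44, MRPL30 and MRPL35, the median log2 fold change off drug against parental was -0.38 over 8 members and -0.18 over 1127 genes. On chromosome 6, which holds MRPS10, MRPL2, MRPS18A and MRPS18B, it was 0.22 over 6 members and 0.25 over 889 genes. On chromosome 4, which holds MRPL1 and MRPS18C, it was -0.33 over members and -0.36 over 634 genes. On chromosome 15, which holds MRPL46 and MRPS11, it was -0.52 over members and -0.26 over 539 genes. Chromosome 19, which holds MRPS12, differed, with -0.29 over 4 members and 0.03 over 1286 genes. On drug against off drug the chromosome 6 values were -0.38 and -0.03. DNA was not measured here, and the part of copy number was not tested. In the GENCODE annotation (release 29) 41 members have an exon that overlaps another gene, 16 of them on the same strand and 29 on the opposite strand, and since no source used here states the strand setting, reads from such pairs may not be told apart. Among the members described above these include MRPL2 (with KLC4), MRPL9 (OAZ3), MRPL32 (PSMA2), MRPS12 (SARS2) and MRPS25 (NR2C2) on the opposite strand. On the same strand they include MRPL33 (BABAM2), MRPL53 (CCDC142) and MRPS5 (ZNF514). MRPL30 and MRPL46 also overlap other protein-coding genes on the same strand.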

How the data were processed

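RNA-seq values of 9 libraries were used. The submitters' processing notes list Salmon 0.14.1, FastQC 0.12.1, bcl2fastq 2.17 and the build GRCh38.p13 without saying what each was for. The authors deposited estimated counts per gene, unscaled for depth, and TPM values, scaled for length and depth. No source used here states the annotation release, strand setting or gene summing. Estimated counts can split reads shared between genes, which can move the values of overlapping members. Counts were rounded and fitted with edgeR 4.0.16 (R 4.3.3; quasi-likelihood, 1 fit of 9 libraries, TMM, filterByExpr with minimum count 10 and total 15, 6 residual degrees of freedom). A call means a Benjamini-Hochberg adjusted p below 0.05 across the 17307 genes tested, and SE is the size of the log2 fold change divided by the root of F. TPM was tested with limma 3.58.1. The steps were tested on simulated data. There, few genes changed, in either direction, with the same spread for all genes and no shift in library makeup. That test therefore cannot check the choice of scaling. Sums and ratios were compared with exact permutation tests (scipy 1.17.1), adjusted over the 3 pairs of groups.

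Members and lists were chosen with earlier results of these data known. Named members are the 8 largest called rises and falls per comparison, the 4 highest and 4 lowest by mean TPM, the 4 of highest level that switch call with library size alone, and 10 chosen by role (MRPL12, MRPL45, MRPL58, MRPL44, MRPS12, MRPS30, MRPS18A, MRPS18B, MRPS18C, MRPL41). For the related lists, up to 3 called genes of largest change could be named. Alternatives were other scalings, filters, DESeq2 1.42.0, limma voom, TPM values, a replicate block, 2-group fits and each library left out.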

Additional observations from a re-analysis of the deposited data

How the results depend on the processing

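Comparison A is off drug against parental, B on drug against off drug and C on drug against parental. As reported, A, B and C had 15, 12 and 11 members higher, 21, 23 and 23 lower, and medians of -0.04, -0.07 and -0.13. With library size alone B had 36 higher, 9 lower and a median of 0.19, and C 24, 11 and 0.092. Upper-quartile factors gave 9 higher in A and 24 higher and 15 lower in B, and TMM factors from abundant genes 9 higher in A and 24 in B. Equal member medians gave 29 higher, 12 lower and a median of 0.0998 in B and 17, 12 and 0.049 in C. Median-ratio factors from the members alone, chosen after seeing the data, gave 15 lower in C. With no filter B had 19 higher. On log2(TPM + 1) the counts higher were 27, 35 and 40, the lower ones in B and C 10 and 8, and their medians 0.17 and 0.23; on log2(TPM + 0.1) they were 27, 35 and 40, 9 and 8, and 0.17 and 0.24. The median of A also turned positive on log2(TPM + 1) (0.070), log2(TPM + 0.1) (0.071) and with factors from the members alone (0.034), and that of B with upper-quartile factors (0.063) and abundant genes (0.041). DESeq2, limma voom, RLE factors, the stricter filter and fits of only 2 groups kept every count within 1.5 times. The log2 ratio of summed levels in A, -0.026 in share of counts, was 0.088 in summed TPM, and the large-to-small ratio in C, 0.13, was -0.025 by the median member; the cause was not tested.

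Leaving out 1 library at a time gave 12 to 20, 9 to 20 and 8 to 14 members higher and 15 to 24, 17 to 27 and 19 to 31 lower, with medians of -0.10 to 0.04, -0.15 to -0.01 and -0.17 to -0.05. The median of A turned positive without parental replicate 3 (0.04), and the count higher in B reached 20 without on-drug replicate 1. The summed level in A ranged from -0.065 to 0.013 and was above 0 without parental replicate 3 or off-drug replicate 2 (0.0092). Same-numbered libraries did not deviate together (correlations of -0.034 to 0.135, 1 of 9 over 0.1), so the numbers were not taken as pairs; with a replicate block 16, 14 and 12 members were higher and 23, 22 and 23 lower.

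Some named members changed sign. In A, MRPL12 (-0.049) was 0.029 with members alone, 0.0998 and 0.10 on the 2 TPM scales, and -0.11 to 0.087 with 1 library left out (above 0 without parental replicate 3). In B, MRPL45 (-0.09) was 0.041 with upper quartile, 0.16 with library size, 0.019 with abundant genes, 0.081 with equal medians and 0.14 on both TPM scales. MRPL41 (-0.17) was 0.087 with library size, 0.0048 with equal medians and 0.21 on both TPM scales. MRPS12 (0.0029) was -0.013 in the 2-group fit and -0.043 to 0.061 with 1 library left out. MRPL44, called at -0.25, was 0.0033 with library size. In C, MRPL58 (-0.20) was 0.028 with library size and 0.18 on both TPM scales. MRPS18A (-0.17) was 0.0497 with library size, 0.0079 with equal medians and 0.26 on both TPM scales. MRPS18B (-0.017) was 0.026 with upper quartile, 0.21 with library size, 0.17 with equal medians, 0.10 with members alone, 0.031 with no filter, 0.32 on both TPM scales and -0.062 to 0.056 with 1 library left out (above 0 without parental replicate 3).

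The 3 libraries per group limit what can be shown: no permutation test can go under 0.1, and all values come from 1 resistant derivative. Counting error (1 over the root of the mean count) had a median of 2.1 to 2.4% over members in each group, against a median SD between libraries of 7.8 to 8.6%; the SD was the larger in 77, 72 and 72 of 78 members in parental, off-drug and on-drug libraries, and not in the others.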
